A study of Mus musculus with 15 samples.

Results

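The Wnt pathway genes of NMuMG mammary epithelial cells were followed across the loss of the RNA-binding protein PCBP1 and across knockout of the secreted protein FAM3C or its receptor LIFR. Genes were taken by a pattern on the gene name that holds the Wnt ligands, the Frizzled (Fzd) receptors, the co-receptors Lrp5, Lrp6, Ror1 and Ror2, the R-spondins (Rspo) and their LGR receptors, the ligases Rnf43 and Znrf3, the antagonists Sfrp, Dkk and Notum, the inhibitors Axin and Nkd, and the TCF/LEF transcription factors. The pattern matched 43 of the 15701 genes listed in either of 2 RNA-Seq datasets: 14 ligands, 9 Frizzled receptors, 3 co-receptors, 2 R-spondins, 3 LGR receptors, 2 ligases, 3 secreted antagonists, 3 intracellular inhibitors and 4 TCF/LEF factors. The first dataset listed 32 of them and the second 40, with 29 in both by gene symbol. No measured value was used to choose them.

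NMuMG is a line of normal mouse mammary gland epithelium. In the second dataset, 2 samples of shPCBP1 cells, in which an shRNA lowers PCBP1, were compared with 2 NMuMG samples that the labels call untreated and the study calls shSCR, a non-targeting shRNA. In the first dataset all 11 libraries carried the PCBP1 shRNA, also the controls: 4 shPCBP1 lines (1 unaltered, and CT clones 1 to 3, which received Cas9 without a guide RNA), 3 FAM3C KO clones, 3 LIFR KO clones and 1 double KO. Each knockout clone came from 1 colony after Cas9 excised a short coding fragment, and each line gave 1 RNA sample. Nothing in the labels says that the replicates of the second dataset were separate cultures, so p values there measure the spread between samples that may be technical.

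Wnt ligands are secreted lipid-modified proteins that bind a Frizzled receptor together with Lrp5 or Lrp6. Binding disables a cytoplasmic complex built on Axin, so that beta-catenin accumulates and activates genes through TCF/LEF factors, among them Axin2, Rnf43, Znrf3 and Lgr5, which act back on the pathway. Rnf43 and Znrf3 mark Frizzled receptors for removal from the cell surface, and R-spondins bound to LGR receptors block that removal. In the mammary gland, Wnt signals act in branching of the ducts and in maintenance of stem cells.

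For Axin2 and Rnf43, both known beta-catenin targets, and for Tcf7l2, a TCF factor, the promoter windows are shown because these genes stand apart between groups below. Each is 300 bases of RefSeq sequence on GRCm38.p6, from 250 bases before to 50 after an annotated start, with capitals marking the CTTTG core of a TCF/LEF site on either strand (CAAAG on the other). Axin2 covers chr11:108920099-108920398 (plus strand), Rnf43 chr11:87662837-87663136 (plus strand) and Tcf7l2 chr19:55741560-55741859 (plus strand).
Axin2: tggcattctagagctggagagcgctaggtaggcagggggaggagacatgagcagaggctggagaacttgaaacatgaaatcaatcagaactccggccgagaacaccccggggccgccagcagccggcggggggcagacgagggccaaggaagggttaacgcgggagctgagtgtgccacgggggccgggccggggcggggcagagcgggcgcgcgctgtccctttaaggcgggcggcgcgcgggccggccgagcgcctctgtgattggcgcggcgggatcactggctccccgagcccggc
Rnf43: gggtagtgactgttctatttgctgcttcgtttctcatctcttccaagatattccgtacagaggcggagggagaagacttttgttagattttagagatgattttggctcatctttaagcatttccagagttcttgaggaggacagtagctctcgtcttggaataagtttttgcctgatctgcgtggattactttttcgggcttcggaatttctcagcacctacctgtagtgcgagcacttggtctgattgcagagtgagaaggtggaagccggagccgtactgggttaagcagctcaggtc
Tcf7l2: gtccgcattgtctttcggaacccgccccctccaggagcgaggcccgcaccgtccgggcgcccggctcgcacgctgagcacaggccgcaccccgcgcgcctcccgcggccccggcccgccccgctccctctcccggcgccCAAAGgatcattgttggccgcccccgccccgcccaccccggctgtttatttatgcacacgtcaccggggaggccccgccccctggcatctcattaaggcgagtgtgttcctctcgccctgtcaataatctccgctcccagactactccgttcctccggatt
The core lay in the Tcf7l2 window alone of these 3. Windows were found for 28 of the 43 genes, 37 windows in all. The core was in 15 of the 37 (40.5%) and in 53.9% of all 32851 promoter windows. The longer letters CTTTGAA were in none of the 37 and in 5.14% of all windows, and CTTTGAT was in 2 (those of Wnt5b and Wnt11) and in 3.73% of all. The STAT palindrome TTCNNNGAA was in 1, that of Wnt5b, and in 8.30% of all. The Wnt gene windows held a median of 24 CpG dinucleotides, against 7 over all windows. A match or its absence in a window of this length says nothing of whether a factor binds.

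Levels are CPM, reads of a gene scaled to the total of its library, as the authors deposited them. The smallest step between values puts the totals at 16031859 to 46901675 reads per library in the first dataset and 53033517 to 56497175 in the second. Pcbp1 stood at 287 and 312 CPM in NMuMG and 14.1 and 14.2 CPM in shPCBP1. In the first dataset Fam3c was at 26.4 to 42.9 CPM in the FAM3C KO clones and 47.0 to 59.4 CPM in the shPCBP1 lines. Lifr was at 25.8 to 40.2 CPM in the shPCBP1 lines and 14.6 to 34.9 CPM in the LIFR KO clones. In FAM3C KO clones 1, 2 and 3 Lifr was at 13.5, 10.5 and 19.2 CPM, below every shPCBP1 line. The study also reported lower LIFR after FAM3C knockout. Total CPM of a gene does not test for a short excision. LIFR KO clones 2 and 3 and the double KO stood apart from the other libraries: over 12603 genes, the GC content of a gene and its difference from the mean of the shPCBP1 lines were correlated at a Spearman rho of -0.76, -0.74 and -0.70, against -0.29 to 0.24 in the others, and mitochondrial genes took 7.16% to 8.58% of their CPM against 3.14% to 4.06%. Of 8 luminal epithelial markers 5 were listed in each dataset, summing to 2917 to 2970 CPM in NMuMG. Leukocyte, basal, endothelial and adipocyte markers summed to at most 10.9, 5.24, 2.24 and 0.751 CPM in any library.

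Loss of PCBP1 came with differences in most measured Wnt genes. Wnt7a, Lgr6, Wnt4, Fzd9, Axin2 and Lgr5 were all under 1 CPM in NMuMG and at 1.35 CPM or more in shPCBP1, and Rnf43, Fzd2 and Tcf7 rose from low or moderate levels. Fzd8, Lgr4, Lrp5 and Tcf7l2 were at least 2-fold lower. Of the 26 genes that passed the filter (a mean of at least 0.5 CPM), 24 differed at an adjusted p under 0.07 with limma, 16 higher and 8 lower. Of all 11384 genes tested 80.1% did so too (42.1% higher, 38.0% lower), so the count is not a result about the Wnt genes. Groups did not overlap for the same 24, against 89% of all genes. With a fold of at least 2 also asked for, 15 of the 26 (57.7%) were called against 14.6% of all genes, 11 higher (42.3% against 7.56%) and 4 lower (15.4% against 6.99%). The 14 genes under the filter had no such test, and a gene that passed only through its higher group had to differ. Among the 15, this holds for Axin2, Fzd8, Fzd9, Lgr5, Lgr6, Wnt7a, Wnt9a and Wnt10a, each with a mean under 0.5 CPM in 1 group. The shares were not recomputed without such genes, so the 57.7% cannot be read as an excess in the Wnt genes. The median log2 fold change was 0.54 over the 26 genes and 0.025 over all genes. Setting genes at 0 in one group to their bound could not move this median, since these genes lie far from it. A design of 2 against 2 cannot go below p = 0.333 in an exact permutation test, two-sided. Mesenchymal markers, 11 listed of 13, summed to 536 to 557 CPM in NMuMG and 1317 to 1351 CPM in shPCBP1, and mitochondrial genes took 6.63% to 6.84% and 4.75% to 4.81% of CPM; their part in these differences was not tested. In bulk RNA, fewer expressing cells and less RNA per cell cannot be told apart.

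**Figure D1:**
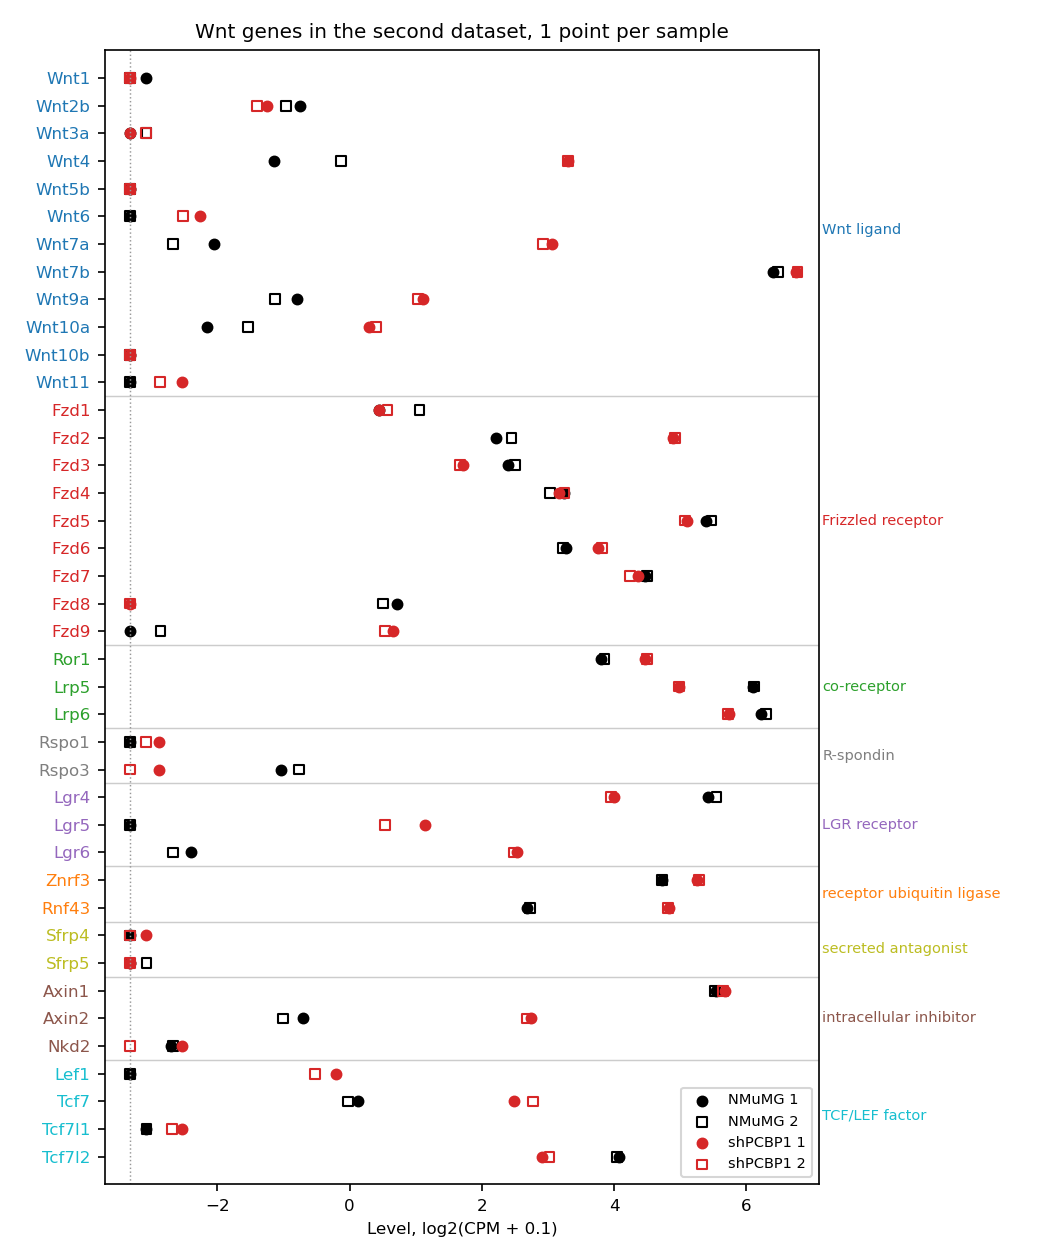
Levels of the 40 Wnt genes of the second dataset on the log2(CPM + 0.1) scale, 1 point per sample (black, NMuMG; red, shPCBP1; the dotted line is the level of a gene at 0), grouped by role. Wnt7a, Lgr6, Wnt4, Axin2 and Fzd9 lie far to the right in shPCBP1, Fzd8 lies on the dotted line there, and the samples of each group lie close together.

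Among the ligands, Wnt7b was the most abundant and differed least of the 5 tested, and the 4 others changed by at least 2-fold. Wnt7b was at 85 and 89.1 CPM in NMuMG and 108 and 109 CPM in shPCBP1 (log2 fold change 0.32 ± 0.029 (SE), adjusted p = 1.45e-06 from limma). Per kilobase of exon it had the highest level of the 39 Wnt genes with a length (Fzd6 has none here) in both groups, 17.8 CPM per kb in NMuMG and 22.1 in shPCBP1. Wnt7a was at 0.142 and 0.0567 CPM in NMuMG and 8.28 and 7.47 CPM in shPCBP1 (log2 fold change 5.35 ± 0.20 (SE), adjusted p = 9.51e-10 from limma). The NMuMG values are 8 and 3 reads, so the gene was nearly silent there. Wnt4 was at 0.354 and 0.811 CPM in NMuMG and 9.82 and 9.81 CPM in shPCBP1 (log2 fold change 3.95 ± 0.25 (SE), adjusted p = 6.75e-08 from limma). Wnt4, which acts downstream of progesterone in ductal branching, did not overlap between the groups and its 2 shPCBP1 samples were all but equal. Wnt9a was at 0.478 and 0.358 CPM in NMuMG and 2.06 and 1.94 CPM in shPCBP1 (log2 fold change 2.03 ± 0.17 (SE), adjusted p = 6.45e-07 from limma). Wnt10a was at 0.124 and 0.245 CPM in NMuMG and 1.13 and 1.22 CPM in shPCBP1 (log2 fold change 2.20 ± 0.22 (SE), adjusted p = 3.56e-06 from limma). Both of these ligands were low in shPCBP1 as well. Wnt2b, under the filter, was at 0.496 and 0.415 CPM in NMuMG and 0.323 and 0.277 CPM in shPCBP1. The other 6 ligands listed (Wnt1, Wnt3a, Wnt5b, Wnt6, Wnt10b and Wnt11) did not exceed 0.108 CPM in any sample, and Wnt5b and Wnt10b were at the lowest value in all 4.

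The 9 Frizzled receptors, the ligand-binding part of the receptor complex, went in both directions. Fzd2 was at 4.55 and 5.36 CPM in NMuMG and 29.7 and 30.3 CPM in shPCBP1 (log2 fold change 2.58 ± 0.076 (SE), adjusted p = 1.55e-10 from limma). Its groups lie far apart, and in shPCBP1 it had the highest level per kilobase of the Frizzled genes with a length, 8.19 CPM per kb against 4.90 for Fzd5. Fzd9 was at the lowest value and 0.0378 CPM in NMuMG and at 1.47 and 1.35 CPM in shPCBP1 (adjusted p = 3.44e-08 from limma), a ratio of reads of 77.5 (exact 95% interval 21.1 to 646, counting error only). Fzd8 did the opposite. It was at 1.54 and 1.32 CPM in NMuMG and at the lowest value in both shPCBP1 samples (adjusted p = 9.39e-09 from limma), at least 26.2-fold lower with a floor of 3 reads per library. Fzd5 was at 41.7 and 44.3 CPM in NMuMG and 34.3 and 33.5 CPM in shPCBP1 (log2 fold change -0.34 ± 0.038 (SE), adjusted p = 9.22e-06 from limma). Fzd3 was at 5.19 and 5.54 CPM in NMuMG and 3.17 and 3.09 CPM in shPCBP1 (log2 fold change -0.76 ± 0.097 (SE), adjusted p = 2.58e-05 from limma). Fzd3 and Fzd6 are the Frizzled proteins best known from planar cell polarity, and here they differed in opposite directions. Fzd6 was at 9.56 and 9.28 CPM in NMuMG and 13.4 and 14 CPM in shPCBP1 (log2 fold change 0.54 ± 0.061 (SE), adjusted p = 9.68e-06 from limma). The 2 datasets list Fzd6 under different gene entries, ENSMUSG00000107137 in the second and ENSMUSG00000022297 in the first. Fzd7 was at 21.9 and 22.5 CPM in NMuMG and 20.5 and 18.9 CPM in shPCBP1 (log2 fold change -0.17 ± 0.050 (SE), adjusted p = 0.00794 from limma). For Fzd7 the difference was small, and without shPCBP1 replicate 2 its adjusted p was 0.0997. Fzd4, also the receptor of norrin, was at 9.40 and 8.09 CPM in NMuMG and 8.87 and 9.42 CPM in shPCBP1. Fzd1 was at 1.26 and 1.98 CPM in NMuMG and 1.25 and 1.39 CPM in shPCBP1. In these last 2 genes the groups overlapped and the test was not passed (adjusted p = 0.473 and 0.262 from limma).

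The co-receptors differed less, and the pair that carries the beta-catenin signal fell. Lrp5 was at 68.2 and 69.6 CPM in NMuMG and 31.6 and 31.6 CPM in shPCBP1 (log2 fold change -1.12 ± 0.030 (SE), adjusted p = 8.20e-11 from limma). Lrp6 was at 74.9 and 78.5 CPM in NMuMG and 53.5 and 52.8 CPM in shPCBP1 (log2 fold change -0.53 ± 0.031 (SE), adjusted p = 3.87e-08 from limma). Neither gene overlapped between the groups. Ror1 was at 13.9 and 14.4 CPM in NMuMG and 22 and 22.5 CPM in shPCBP1 (log2 fold change 0.65 ± 0.048 (SE), adjusted p = 2.57e-07 from limma). Ror1, a receptor for Wnt5a outside the beta-catenin branch, was higher in both shPCBP1 samples.

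The 3 LGR receptors, which bind R-spondins, did not move together. Lgr4 was at 42.9 and 46.7 CPM in NMuMG and 15.9 and 15.4 CPM in shPCBP1 (log2 fold change -1.51 ± 0.047 (SE), adjusted p = 2.44e-10 from limma). Lgr4 (ENSMUSG00000050199, chromosome 2 of GRCm38 from 109917647 to 110014257, plus strand), the broadly expressed member, was the most abundant LGR gene in both groups and was lower in both shPCBP1 samples. Lgr5 (ENSMUSG00000020140, chromosome 10 of GRCm38 from 115450311 to 115587780, minus strand), a marker of stem cells in several epithelia, was at the lowest value in both NMuMG samples and at 2.10 and 1.35 CPM in shPCBP1 (adjusted p = 2.16e-08 from limma), at least 31.4-fold higher with the floor of 3 reads. Lgr6 was at 0.0886 and 0.0567 CPM in NMuMG and 5.66 and 5.53 CPM in shPCBP1 (log2 fold change 5.05 ± 0.16 (SE), adjusted p = 2.86e-10 from limma). The NMuMG values of Lgr6 are 5 and 3 reads. Per kilobase, Lgr4 remained above the other 2 in shPCBP1, at 2.66 CPM per kb against 0.817 for Lgr6 and 0.168 for Lgr5. Of their ligands, Rspo3 was at 0.390 and 0.490 CPM in NMuMG and at 0.0359 CPM and the lowest value in shPCBP1, a ratio of reads of 24.0 (exact 95% interval 6.29 to 204) with no test, and Rspo1 did not exceed 0.0359 CPM.

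Both ligases that act against Frizzled receptors rose. Rnf43 was at 6.34 and 6.52 CPM in NMuMG and 28.4 and 28.2 CPM in shPCBP1 (log2 fold change 2.12 ± 0.054 (SE), adjusted p = 5.43e-11 from limma). Rnf43 (ENSMUSG00000034177, chromosome 11 of GRCm38 from 87662722 to 87735539, plus strand) stood several times higher in both shPCBP1 samples. Znrf3 was at 26.4 and 26.2 CPM in NMuMG and 38.2 and 39 CPM in shPCBP1 (log2 fold change 0.55 ± 0.035 (SE), adjusted p = 8.22e-08 from limma). Znrf3, its paralog, was the more abundant in NMuMG, and the 2 were close per kilobase in shPCBP1 (4.31 CPM per kb for Rnf43 and 4.89 for Znrf3). Of the secreted antagonists only Sfrp4 and Sfrp5 were listed in this dataset, and neither exceeded 0.0190 CPM. A gene that is not listed has no value here.

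Among the inhibitors inside the cell, Axin2, which beta-catenin itself induces, rose, and its constitutive counterpart Axin1 differed little. Axin2 was at 0.513 and 0.396 CPM in NMuMG and 6.59 and 6.3 CPM in shPCBP1 (log2 fold change 3.57 ± 0.14 (SE), adjusted p = 1.62e-09 from limma). Axin2 (ENSMUSG00000000142, chromosome 11 of GRCm38 from 108920349 to 108950783, plus strand) had 29 and 21 reads in NMuMG and 368 and 341 in shPCBP1. Axin1 was at 46.7 and 46 CPM in NMuMG and 51.1 and 50.1 CPM in shPCBP1 (log2 fold change 0.13 ± 0.030 (SE), adjusted p = 0.00288 from limma). Per kilobase Axin1 remained far above Axin2 in shPCBP1, at 13.2 CPM per kb against 1.17. Nkd2, which binds Dishevelled, did not exceed 0.0718 CPM.

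The TCF/LEF factors, the partners of beta-catenin on DNA, went in both directions. Tcf7 was at 0.991 and 0.886 CPM in NMuMG and 5.5 and 6.73 CPM in shPCBP1 (log2 fold change 2.58 ± 0.13 (SE), adjusted p = 1.34e-08 from limma). Tcf7l2 was at 16.7 and 16.4 CPM in NMuMG and 7.45 and 8.04 CPM in shPCBP1 (log2 fold change -1.09 ± 0.063 (SE), adjusted p = 3.64e-08 from limma). Tcf7l2 (ENSMUSG00000024985, chromosome 19 of GRCm38 from 55741820 to 55933654, plus strand) had been the most abundant of the 4 in NMuMG, at 1.89 CPM per kb against 0.358 for Tcf7, and the order was the opposite in shPCBP1 (0.883 against 2.33). Lef1, under the filter, was at the lowest value in both NMuMG samples and at 0.767 and 0.597 CPM in shPCBP1, at least 12.4-fold higher with the floor of 3 reads. Tcf7l1, mostly a repressor, did not exceed 0.0718 CPM.

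Other genes of the pathway were counted over lists chosen by function. These counts are to be read against the 80.1% of all genes called (42.1% higher, 38.0% lower) and the median log2 fold change of 0.025 over all genes. Of 31 tested genes for Wnt secretion, the destruction complex and Dishevelled, 12 were higher and 15 lower at an adjusted p under 0.07, with a median log2 fold change of -0.045. Porcn, the enzyme that adds the lipid to Wnt ligands, fell (log2 fold change -2.04 ± 0.077 (SE), adjusted p = 1.05e-09 from limma), as did Btrc, part of the ligase for beta-catenin (log2 fold change -1.24 ± 0.087 (SE), adjusted p = 1.62e-07 from limma). Cxxc5, an inhibitor that binds Dishevelled, rose (log2 fold change 6.06 ± 0.11 (SE), adjusted p = 4.35e-12 from limma). Of 15 genes of planar cell polarity 10 were higher and 3 lower, with Vangl2 (log2 fold change 4.95 ± 0.14 (SE), adjusted p = 1.44e-10 from limma) and Celsr2 (log2 fold change -5.73 ± 0.24 (SE), adjusted p = 2.49e-09 from limma) at opposite ends. Of 13 known beta-catenin/TCF target genes outside the pattern 10 were higher and 3 lower, with a median of 0.98, including Wisp1 (log2 fold change 4.22 ± 0.051 (SE), adjusted p = 3.29e-13 from limma) and Bmp4 (log2 fold change -2.05 ± 0.11 (SE), adjusted p = 1.59e-08 from limma). Of 4 other secreted or membrane regulators 2 were higher and 1 lower. In all 4 lists most tested genes were called, as over all genes, so the number called is no result about the lists. With a fold of at least 2 also asked for, 1 of the 31 was higher and 4 lower. Of the 15 it was 3 and 1, of the 13 it was 6 and 2, and of the 4 it was 2 and 1. Over all genes 7.56% were higher and 6.99% lower by this rule. Some listed genes passed the filter only through their higher group, such as Ephb3 (0.0815 CPM in NMuMG), so no excess is read from these counts.

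**Figure D2:**
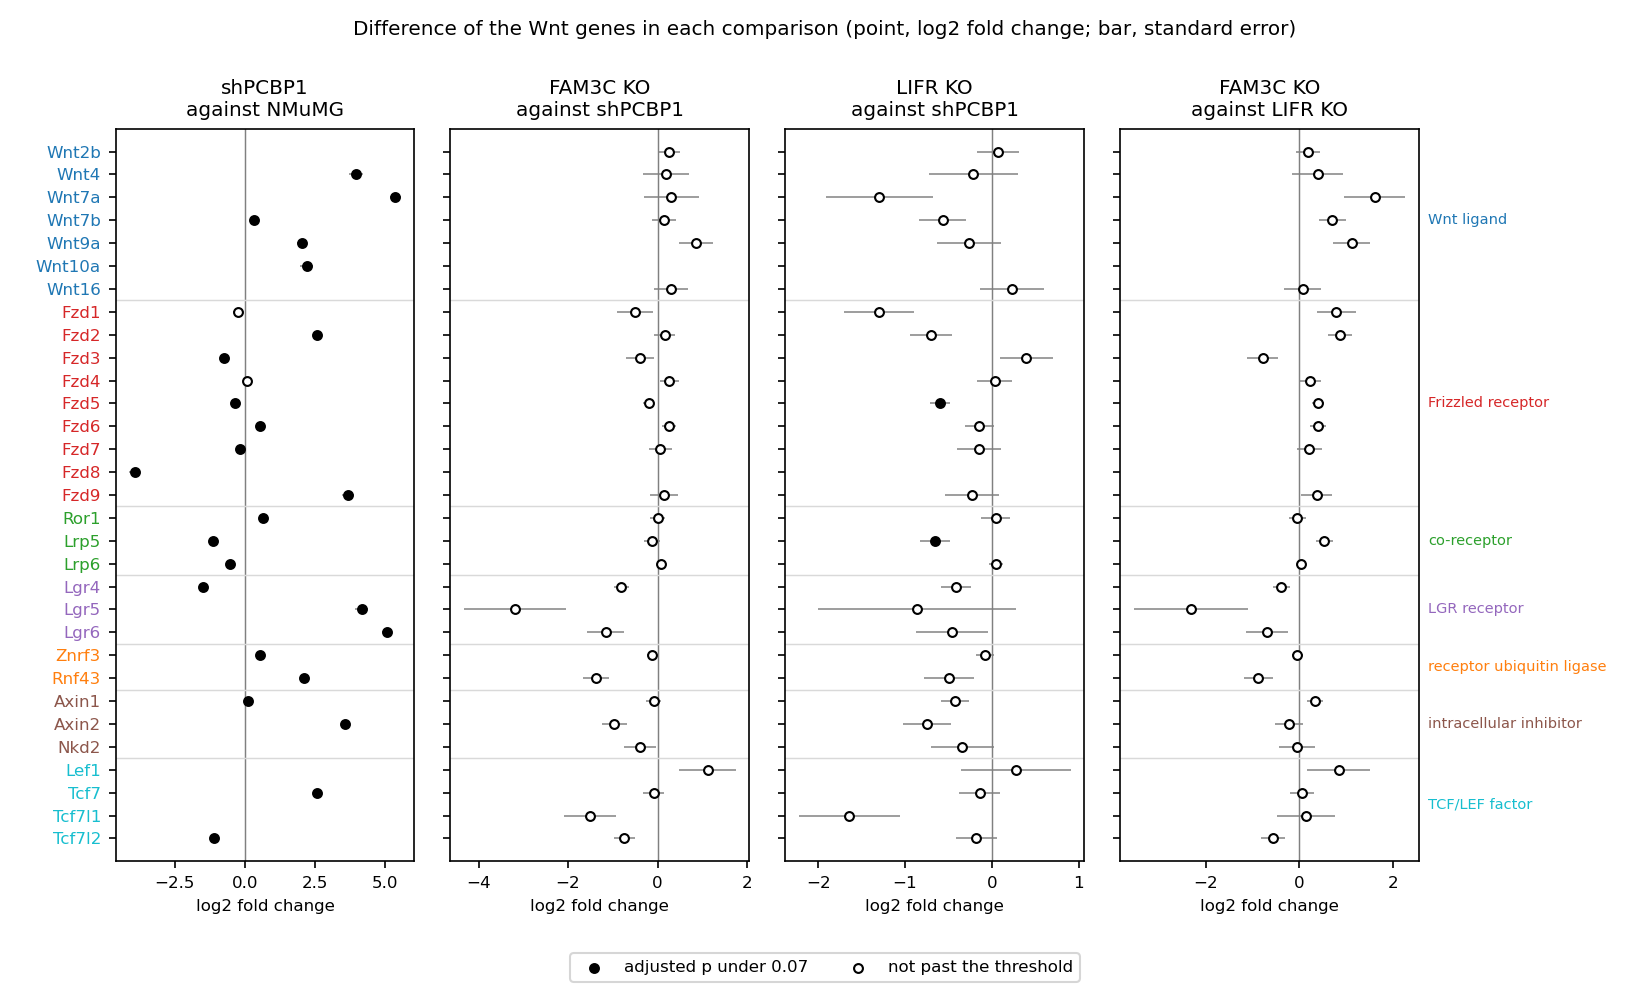
Log2 fold change (points) with its standard error (bars) of the Wnt genes past the filter in the 4 comparisons, ordered by role, on axes of different range. Filled points are past an adjusted p under 0.07 (24 of 26 genes for shPCBP1 against NMuMG, 2 of 29 for LIFR KO against shPCBP1, none in the other 2 comparisons). Rnf43, Lgr4, Axin2 and Tcf7l2 lie left of 0 in FAM3C KO with the test not passed.

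The first dataset asked what FAM3C and LIFR contribute in cells that have lost PCBP1. In the FAM3C KO clones no Wnt gene passed the test: 0 of 29 genes past the filter, against 0.309% of all 12621 genes. The lowest adjusted p values were those of Rnf43 (0.108), Lgr4 (0.110), Axin2 (0.233) and Tcf7l2 (0.276), all with lower values in FAM3C KO. In each of these 4 genes, and in Tcf7l1, every FAM3C KO clone lay below every shPCBP1 line. Any such separation gives p = 0.0571 in the exact permutation test, two-sided, the smallest that 4 against 3 allows. That p value adds nothing to the lack of overlap. Groups did not overlap for 8 of the 29 genes (27.6%), against 22.7% of all genes. At an unadjusted p under 0.05 there were 8 of 29 genes, against 10.2% of all genes, of which 7 were lower (24.1% against 5.05%). With the 2 groups fitted without LIFR KO, 5 genes (Axin2, Lgr4, Rnf43, Tcf7l1 and Tcf7l2) passed, and so did 8.29% of all genes. After a correction for GC content 2 passed (Lgr4 and Rnf43), and 1.90% of all genes. The median log2 fold change was -0.085 over the 29 genes and -0.014 over all genes. Mesenchymal markers, 12 listed of 13, summed to 2084 to 2242 CPM in the FAM3C KO clones and 1805 to 2049 CPM in the shPCBP1 lines, without overlap, and luminal markers to 2001 to 3024 and 2466 to 3166 CPM; their part in these differences was not tested.

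In the LIFR KO clones 2 of 29 Wnt genes passed, Fzd5 and Lrp5, both lower. This is 6.90% against 6.47% of all genes, so the share is that of the background, and 5.55% of all genes were called lower. Groups did not overlap for 5 genes (17.2%), against 17.2% of all genes. At an unadjusted p under 0.05 there were 8 of 29 (27.6%), against 35.7%, and the mean was lower for 22 of 29 (75.9%), against 64.5%. The median log2 fold change was -0.26 over the 29 genes and -0.16 over all genes, and median-ratio rescaling moved the median of all genes to -0.0019. Without LIFR KO clones 2 and 3 a single LIFR KO library is left, which the fit assumes to vary like the other groups; Fzd1 was then the 1 gene called (2.22% of all genes), a value of clone 1 alone. With median-ratio rescaling Fzd5 alone passed (3.79% of all genes passed). After the GC correction none of the 29 passed (0.357% of all genes passed). No Wnt gene passed without LIFR KO clone 2, where 45 of all 12643 genes did. Nor did any without any one of the 4 shPCBP1 lines, where from 5 of 12605 to 48 of 12615 genes did. Few genes of any kind passed in these settings. Without LIFR KO clone 3 the 2 that passed were Fzd1 and Fzd5 (5.72% of all genes passed). Without LIFR KO clone 1 there were 9 genes, and 57.4% of all genes passed. Luminal markers summed to 1212 to 2092 CPM in the LIFR KO clones and 2466 to 3166 CPM in the shPCBP1 lines, and mesenchymal markers to 1304 to 1945 and 1805 to 2049 CPM; their part in these differences was not tested.

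FAM3C KO and LIFR KO, whose comparisons share the shPCBP1 lines, were also compared with each other. None of the 29 genes passed, against 8.28% of all genes, with the lowest adjusted p for Fzd2 (0.0769) and Fzd5 (0.0848), both at higher values in FAM3C KO. Groups did not overlap for 3 genes (10.3%), Fzd5, Lef1 and Lgr4, against 22.8% of all genes. At an unadjusted p under 0.05 there were 9 genes (31.0%), against 29.3%. Median-ratio rescaling moved the median of all genes from 0.14 to 0.0024. With that rescaling, or with the GC correction, Rnf43 passed (6.49% and 0.595% of all genes passed). With clone 1 as the only LIFR KO library, again assumed to vary like the other groups, there were 4 genes (Fzd1, Fzd6, Rnf43 and Tcf7l2, with 9.45% of all genes). Without LIFR KO clone 1 there were 6 (52.9% of all genes), and without LIFR KO clone 3 there were 5 (11.6% of all genes). In the paragraphs that follow, values of the shPCBP1 lines are in the order unaltered line and CT clones 1, 2 and 3, and those of the knockouts in the order of clones 1, 2 and 3.

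The ligase Rnf43 had the lowest adjusted p of the Wnt genes in FAM3C KO. Rnf43 was at 59.3, 74.5, 76.8 and 94.4 CPM in the shPCBP1 lines, 41.1, 19.5 and 30.2 CPM in the FAM3C KO clones, 78.5, 51.9 and 37.1 CPM in the LIFR KO clones and 26.8 CPM in the double KO. The mean ± SD was 76.2 ± 14.4 CPM over the 4 shPCBP1 lines, 30.3 ± 10.8 CPM over the 3 FAM3C KO clones and 55.9 ± 21 CPM over the 3 LIFR KO clones. Every FAM3C KO clone was below every shPCBP1 line, and LIFR KO clone 1 lay among the shPCBP1 lines while clone 3 lay among the FAM3C KO clones (FAM3C KO against shPCBP1, log2 fold change -1.37 ± 0.29 (SE), adjusted p = 0.108 from limma). Znrf3 was at 119.9, 126, 103 and 113 CPM in the shPCBP1 lines, 113, 98 and 106 CPM in the FAM3C KO clones, 123, 104 and 101 CPM in the LIFR KO clones and 95.7 CPM in the double KO. For Znrf3 all groups overlapped.

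Of the LGR receptors, Lgr4 separated both knockouts from the shPCBP1 lines. Lgr4 was at 39.7, 46.9, 61.4 and 47.6 CPM in the shPCBP1 lines, 31, 21.3 and 31.9 CPM in the FAM3C KO clones, 34.1, 38.7 and 36 CPM in the LIFR KO clones and 35.2 CPM in the double KO. The mean ± SD was 48.9 ± 9.07 CPM over the 4 shPCBP1 lines, 28 ± 5.88 CPM over the 3 FAM3C KO clones and 36.2 ± 2.32 CPM over the 3 LIFR KO clones, with no overlap between any pair of the 3 groups. The test was not passed in FAM3C KO (log2 fold change -0.81 ± 0.17 (SE), adjusted p = 0.11 from limma) or in LIFR KO (log2 fold change -0.42 ± 0.17 (SE), adjusted p = 0.122 from limma). Lgr5 was at 10.9, 5.29, 11.1 and 6.08 CPM in the shPCBP1 lines, 0.709, 0.040 and 5.88 CPM in the FAM3C KO clones, 9.01, 9.65 and 0.858 CPM in the LIFR KO clones and 3.09 CPM in the double KO. Lgr5 varied over the clones of each knockout, with FAM3C KO clone 2 at the floor of its library and clone 3 among the shPCBP1 lines (FAM3C KO against shPCBP1, log2 fold change -3.19 ± 1.14 (SE), adjusted p = 0.343 from limma). Lgr6 was at 5.18, 3.5, 4.93 and 8.69 CPM in the shPCBP1 lines, 1.55, 5.0 and 1.58 CPM in the FAM3C KO clones, 4.18, 4.28 and 3.09 CPM in the LIFR KO clones and 1.73 CPM in the double KO. FAM3C KO clones 1 and 3 were low in Lgr6 and clone 2 was not (log2 fold change -1.16 ± 0.41 (SE), adjusted p = 0.342 from limma). Rspo3 was at 0.816, 0.32, 0.0404 and 0.0344 CPM in the shPCBP1 lines, 0.0443, 0.040 and 3.15 CPM in the FAM3C KO clones, 0.431, 0.0416 and 0.0429 CPM in the LIFR KO clones and 0.609 CPM in the double KO. Rspo3, under the filter, was below 0.05 CPM in 6 of the 11 libraries and highest in FAM3C KO clone 3.

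Axin2, the inhibitor that is a standard readout of beta-catenin activity, passed the test in neither knockout. Axin2 was at 18.6, 13.8, 21.3 and 18.7 CPM in the shPCBP1 lines, 10.7, 6.08 and 11.7 CPM in the FAM3C KO clones, 14.5, 11.3 and 7.3 CPM in the LIFR KO clones and 7.4 CPM in the double KO. The mean ± SD was 18.1 ± 3.13 CPM over the 4 shPCBP1 lines, 9.48 ± 2.98 CPM over the 3 FAM3C KO clones and 11 ± 3.62 CPM over the 3 LIFR KO clones. The FAM3C KO clones did not overlap the shPCBP1 lines (log2 fold change -0.96 ± 0.28 (SE), adjusted p = 0.233 from limma), and of the LIFR KO clones only clone 1 did (log2 fold change -0.75 ± 0.28 (SE), adjusted p = 0.101 from limma). The GC correction gave log2 fold changes of -0.91 for FAM3C KO and -0.31 for LIFR KO, and LIFR KO clone 1 alone gave -0.30. Axin1 was at 82.5, 82.6, 82.9 and 105 CPM in the shPCBP1 lines, 85.6, 79.9 and 82 CPM in the FAM3C KO clones, 88.2, 55.5 and 57.2 CPM in the LIFR KO clones and 46.6 CPM in the double KO. Axin1 was low in LIFR KO clones 2 and 3 and the double KO alone, and high in CT clone 3 (LIFR KO against shPCBP1, log2 fold change -0.42 ± 0.16 (SE), adjusted p = 0.106 from limma). Its log2 fold change was 0.087 after the GC correction and 0.0076 in LIFR KO clone 1 alone, the opposite sign. Nkd2 was at 1.31, 1.11, 1.33 and 0.928 CPM in the shPCBP1 lines, 0.841, 0.44 and 1.65 CPM in the FAM3C KO clones, 0.912, 0.915 and 0.858 CPM in the LIFR KO clones and 0.796 CPM in the double KO. The LIFR KO clones lay only just below the shPCBP1 lines in Nkd2, clone 2 at 0.915 CPM against 0.928 CPM in CT clone 3 (adjusted p = 0.501 from limma). After the GC correction they differed from the shPCBP1 mean by -0.24, 0.23 and 0.099 on the log2 scale. The FAM3C KO clones spread over a wider range.

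Among the TCF/LEF factors, Tcf7l2 and the scarce Tcf7l1 were lower in every FAM3C KO clone than in any shPCBP1 line. Tcf7l2 was at 40.9, 40.6, 56.3 and 49 CPM in the shPCBP1 lines, 28.7, 23.7 and 31.1 CPM in the FAM3C KO clones, 52.1, 50.7 and 25.8 CPM in the LIFR KO clones and 31.1 CPM in the double KO. The mean ± SD was 46.7 ± 7.49 CPM over the 4 shPCBP1 lines, 27.8 ± 3.79 CPM over the 3 FAM3C KO clones and 42.8 ± 14.8 CPM over the 3 LIFR KO clones, of which clone 3 alone was low (FAM3C KO against shPCBP1, log2 fold change -0.74 ± 0.24 (SE), adjusted p = 0.276 from limma). Tcf7l1 was at 1.81, 1.51, 1.13 and 1.13 CPM in the shPCBP1 lines, 0.576, 0.36 and 0.346 CPM in the FAM3C KO clones, 0.912, 0.624 and 0.0429 CPM in the LIFR KO clones and 0.0468 CPM in the double KO. Tcf7l1 was at the lowest value of the library in LIFR KO clone 3 and the double KO, and no knockout clone reached the lowest shPCBP1 line (FAM3C KO, log2 fold change -1.51 ± 0.58 (SE), adjusted p = 0.385 from limma; LIFR KO, log2 fold change -1.64 ± 0.58 (SE), adjusted p = 0.0948 from limma). In LIFR KO the log2 fold change was -1.0 after the GC correction and -0.54 in clone 1 alone. Tcf7 was at 13, 13.6, 12.5 and 14.8 CPM in the shPCBP1 lines, 16.9, 8.28 and 14.5 CPM in the FAM3C KO clones, 15.9, 9.69 and 11.7 CPM in the LIFR KO clones and 8.29 CPM in the double KO. For Tcf7 all groups overlapped. Lef1 was at 3.14, 1.83, 0.324 and 3.51 CPM in the shPCBP1 lines, 4.53, 4.45 and 2.53 CPM in the FAM3C KO clones, 1.78, 1.87 and 2.51 CPM in the LIFR KO clones and 2.48 CPM in the double KO. Lef1 was scarce in CT clone 2, so the shPCBP1 lines alone covered a wide range.

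**Figure D3:**
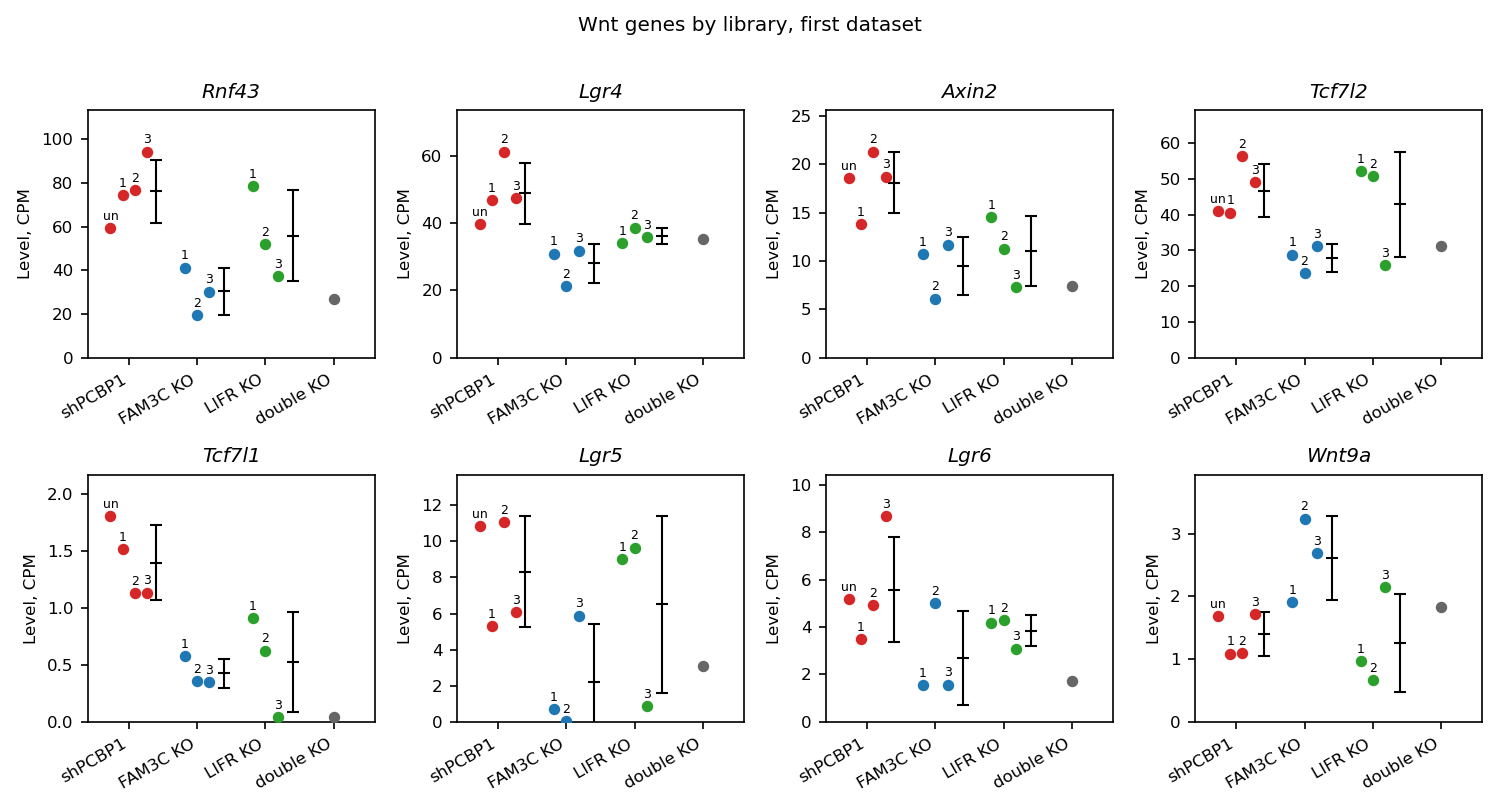
CPM by library in the first dataset for the 8 Wnt genes with an unadjusted p under 0.05 in FAM3C KO against shPCBP1 (points, libraries, with un for the unaltered line and numbers for clones; black bars, mean ± SD of the group; linear axes from 0, and the lower SD bar of Lgr5 in FAM3C KO passes below 0). The FAM3C KO clones lie below all shPCBP1 lines for Rnf43, Lgr4, Axin2, Tcf7l2 and Tcf7l1 and above them for Wnt9a.

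The ligands gave no call in any comparison of the first dataset. Wnt7b was at 102, 75.4, 102 and 107 CPM in the shPCBP1 lines, 139, 69.7 and 121 CPM in the FAM3C KO clones, 87.4, 43.5 and 71.1 CPM in the LIFR KO clones and 66 CPM in the double KO. Wnt7b was again the ligand with the highest level per kilobase, 19.7 CPM per kb over the shPCBP1 lines, and its groups overlapped. Wnt7a was at 6.74, 10.4, 4.0 and 15.4 CPM in the shPCBP1 lines, 5.67, 17.2 and 10.4 CPM in the FAM3C KO clones, 4.02, 1.16 and 7.08 CPM in the LIFR KO clones and 5.34 CPM in the double KO. Wnt4 was at 9.79, 7.12, 6.55 and 5.57 CPM in the shPCBP1 lines, 17.7, 2.92 and 10.1 CPM in the FAM3C KO clones, 6.33, 4.03 and 8.96 CPM in the LIFR KO clones and 6.65 CPM in the double KO. The groups overlapped in both genes, and FAM3C KO clone 2 was the highest of the 11 libraries in Wnt7a and the lowest in Wnt4. Wnt9a was at 1.68, 1.09, 1.09 and 1.72 CPM in the shPCBP1 lines, 1.9, 3.24 and 2.69 CPM in the FAM3C KO clones, 0.966, 0.665 and 2.14 CPM in the LIFR KO clones and 1.83 CPM in the double KO. Every FAM3C KO clone was above every shPCBP1 line in Wnt9a, the only ligand of which this held, and the test was not passed (log2 fold change 0.86 ± 0.37 (SE), adjusted p = 0.459 from limma). Wnt2b was at 2.74, 2.03, 1.5 and 2.23 CPM in the shPCBP1 lines, 2.92, 2.56 and 2.07 CPM in the FAM3C KO clones, 2.31, 2.54 and 1.8 CPM in the LIFR KO clones and 2.06 CPM in the double KO. Wnt16 was at 0.936, 0.768, 0.727 and 0.344 CPM in the shPCBP1 lines, 0.886, 0.68 and 0.961 CPM in the FAM3C KO clones, 0.912, 1.12 and 0.472 CPM in the LIFR KO clones and 1.41 CPM in the double KO. These 2 scarce ligands overlapped between all groups. Wnt5a was at 0.125, 0.0853, 0.0808 and 3.71 CPM in the shPCBP1 lines, 0.0443, 0.080 and 0.0384 CPM in the FAM3C KO clones, 0.0536, 0.0416 and 0.0858 CPM in the LIFR KO clones and 0.0468 CPM in the double KO. Wnt5a, under the filter, was present in CT clone 3 alone, and at most at 0.125 CPM elsewhere.

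Of the Frizzled receptors, Fzd5 alone passed, in LIFR KO. Fzd5 was at 49.1, 54, 52.5 and 57.9 CPM in the shPCBP1 lines, 46.2, 46.7 and 46.2 CPM in the FAM3C KO clones, 40.5, 29.4 and 36.8 CPM in the LIFR KO clones and 30.7 CPM in the double KO. Fzd5 lies on chromosome 1 of GRCm38 from 64730558 to 64737751, minus strand (ENSMUSG00000045005). The mean ± SD was 53.4 ± 3.63 CPM over the 4 shPCBP1 lines, 46.3 ± 0.296 CPM over the 3 FAM3C KO clones and 35.6 ± 5.61 CPM over the 3 LIFR KO clones. All 3 LIFR KO clones lay below the other 2 groups, and FAM3C KO lay below shPCBP1 with a narrow spread (LIFR KO against shPCBP1, log2 fold change -0.59 ± 0.12 (SE), adjusted p = 0.0388 from limma; exact permutation test, two-sided, p = 0.0571). After the GC correction the log2 fold change was -0.27, with the test not passed. An annotated gene on the opposite strand covers 17.8% of its exonic bases, and whether reads were counted by strand is not stated. Fzd2 was at 51.1, 43.2, 42 and 38.5 CPM in the shPCBP1 lines, 49.9, 40.3 and 56.7 CPM in the FAM3C KO clones, 43.4, 21.5 and 20.4 CPM in the LIFR KO clones and 25.5 CPM in the double KO. For Fzd2 LIFR KO clones 2 and 3 and the double KO were low and clone 1 was not (LIFR KO against shPCBP1, log2 fold change -0.70 ± 0.24 (SE), adjusted p = 0.0922 from limma). The log2 fold change was -0.19 after the GC correction and -0.0025 in clone 1 alone. Fzd1 was at 8.11, 12, 5.17 and 8.73 CPM in the shPCBP1 lines, 7.48, 4.04 and 6.11 CPM in the FAM3C KO clones, 1.66, 3.7 and 5.53 CPM in the LIFR KO clones and 2.34 CPM in the double KO. In Fzd1 the order of the LIFR KO clones was the opposite, with clone 1 lowest (log2 fold change -1.30 ± 0.40 (SE), adjusted p = 0.0812 from limma). The log2 fold change was -0.83 after the GC correction and -2.23 in clone 1 alone. Fzd3 was at 6.42, 5.67, 8.04 and 10.8 CPM in the shPCBP1 lines, 6.51, 6.4 and 4.46 CPM in the FAM3C KO clones, 12.6, 13.1 and 5.92 CPM in the LIFR KO clones and 0.0468 CPM in the double KO. Fzd4 was at 11.5, 12.9, 10.6 and 11.7 CPM in the shPCBP1 lines, 16, 11.4 and 15.2 CPM in the FAM3C KO clones, 9.76, 10.2 and 17 CPM in the LIFR KO clones and 14.4 CPM in the double KO. Fzd6 was at 42.7, 40.9, 37.9 and 40.1 CPM in the shPCBP1 lines, 49, 41.7 and 54.9 CPM in the FAM3C KO clones, 31.3, 31.6 and 49.3 CPM in the LIFR KO clones and 45.6 CPM in the double KO. Fzd3 was at 0.0468 CPM in the double KO, the floor of that library. None of these 3 separated either knockout from the shPCBP1 lines, and FAM3C KO and LIFR KO overlapped in each. Fzd7 was at 29.5, 23.9, 31.1 and 39.6 CPM in the shPCBP1 lines, 39.2, 19.998 and 41.5 CPM in the FAM3C KO clones, 31.3, 23.1 and 28.9 CPM in the LIFR KO clones and 29.2 CPM in the double KO. Fzd9 was at 3.24, 2.39, 2.14 and 3.81 CPM in the shPCBP1 lines, 3.45, 2.52 and 3.5 CPM in the FAM3C KO clones, 4.02, 1.83 and 1.84 CPM in the LIFR KO clones and 1.69 CPM in the double KO. Fzd7 and Fzd9 overlapped between all groups. Fzd8 was not listed in this dataset.

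Of the co-receptors, Lrp5 passed in LIFR KO. Lrp5 was at 103, 90.9, 101 and 101 CPM in the shPCBP1 lines, 99.9, 88 and 84.2 CPM in the FAM3C KO clones, 88.7, 53.6 and 51.3 CPM in the LIFR KO clones and 49.5 CPM in the double KO. Lrp5 lies on chromosome 19 of GRCm38 from 3584828 to 3686564, minus strand (ENSMUSG00000024913). The mean ± SD was 98.8 ± 5.34 CPM over the 4 shPCBP1 lines, 90.7 ± 8.22 CPM over the 3 FAM3C KO clones and 64.5 ± 21 CPM over the 3 LIFR KO clones. All LIFR KO clones lay below the shPCBP1 lines, clone 1 by a little and clones 2 and 3 by far (log2 fold change -0.66 ± 0.17 (SE), adjusted p = 0.061 from limma; exact permutation test, two-sided, p = 0.0571). Its log2 fold change was -0.21 after the GC correction and -0.15 in clone 1 alone, with the test not passed in either. Lrp6 was at 119, 119.8, 110.0 and 119 CPM in the shPCBP1 lines, 121, 123 and 127 CPM in the FAM3C KO clones, 113, 119.6 and 131 CPM in the LIFR KO clones and 129.9 CPM in the double KO. Lrp6 stayed within a narrow range in all libraries, and the FAM3C KO clones lay just above the shPCBP1 lines. Ror1 was at 28.3, 33.9, 32.6 and 20.9 CPM in the shPCBP1 lines, 26.6, 27.6 and 31.3 CPM in the FAM3C KO clones, 33.2, 27.9 and 27.2 CPM in the LIFR KO clones and 25.9 CPM in the double KO. Ror1 overlapped between all groups. The antagonist Dkk3, under the filter, was at 0.344 to 0.647 CPM in the 3 groups of lines.

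**Figure D4:**
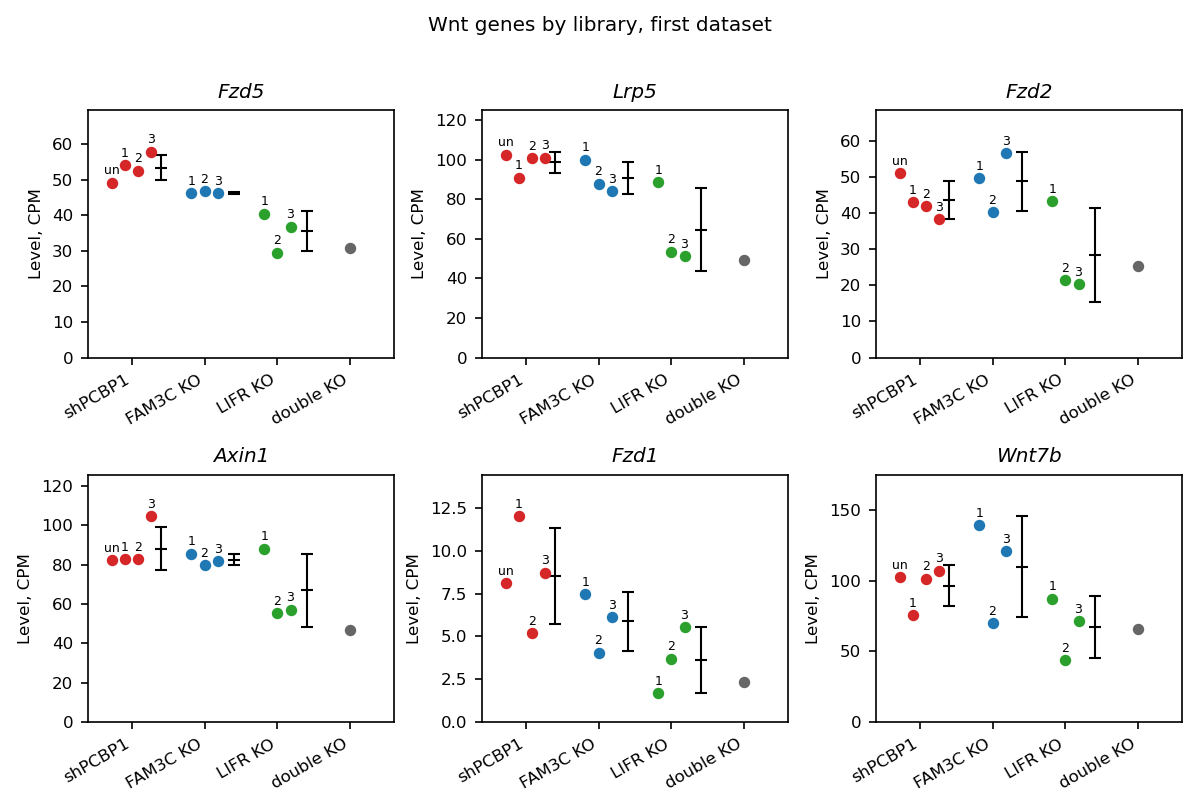
CPM by library in the first dataset for Fzd5, Lrp5, Fzd2, Axin1, Fzd1 and Wnt7b (points, libraries, labelled as un for the unaltered line or by clone number; black bars, mean ± SD of the group; linear axes from 0). LIFR KO clones 2 and 3 and the double KO lie low together in Lrp5, Fzd2 and Axin1, where clone 1 lies at or near the shPCBP1 lines.

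The Wnt genes are richer in GC than most: the exons of the 29 genes had a median GC content of 53.3% (40.3% to 62.2%), against 49.7% over the genes tested. In LIFR KO clone 2 the GC content of the 29 genes and their log2 difference from the mean of the shPCBP1 lines were correlated at a Spearman rho of -0.76, the median difference was -0.40, and after the GC correction these were -0.17 and 0.031. In clone 3 they were -0.31 and -0.41, and 0.30 and 0.099 after the correction. In clone 1 they were -0.28 and -0.045. These correlations are over genes of 1 library each and carry no test. After the correction Fzd5 differed by -0.34, -0.37 and -0.088 on the log2 scale in clones 1, 2 and 3, and Lrp5 by -0.085, -0.22 and -0.34. How much GC content accounts for was not tested beyond this correction.

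**Figure D5:**
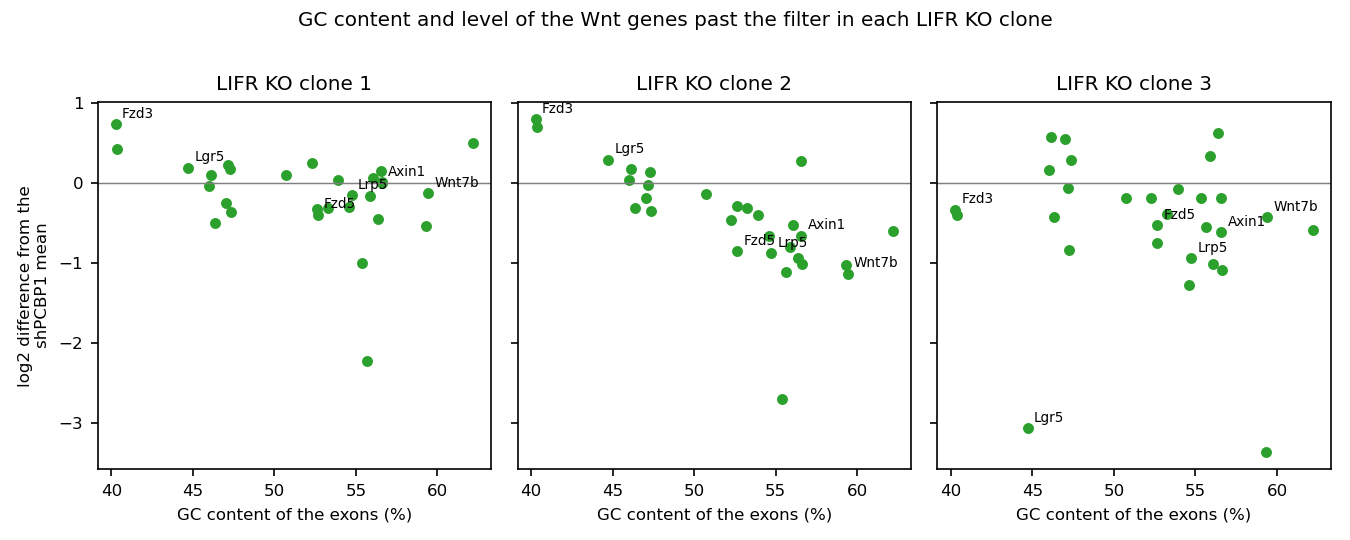
Log2 difference of each of the 29 Wnt genes from the mean of the shPCBP1 lines (vertical axis) against the GC content of its exons in percent (horizontal axis), in each of the 3 LIFR KO clones. In clone 2 the points fall with GC content, from 0.80 for Fzd3 to -1.13 for Wnt7b, with Wnt7a lower still at -2.70, and in clone 1 most points lie near 0.

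Of the Wnt genes, Lrp5 was also the base of a search for like patterns, being the called gene with the widest spread over the 11 libraries (1.05 on the log2 scale). Axin1 (Pearson r = 0.94), Fzd5 (0.90) and Fzd2 (0.89) were most like it over the 11 libraries of log2 values. All 4 have a GC content of 52.7% to 56.6%, and LIFR KO clones 2 and 3 and the double KO were low in each. Wnt9a (56.4%, r = 0.089) and Wnt2b (56.5%, r = 0.18) have a GC content in the same range and were less like Lrp5. The part of GC content in these patterns was not tested.

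Genes that loss of PCBP1 had raised were set beside the knockouts. Of the 10 Wnt genes at least 2-fold higher in shPCBP1 than in NMuMG and tested in both datasets, 5 had a lower mean in FAM3C KO than in the shPCBP1 lines (50%), against 52.6% of the 838 such genes overall. In LIFR KO all 10 had a lower mean, against 75.8% of the 838, in values without the GC correction. With that correction Fzd9 differed from the shPCBP1 mean by 0.56, 0.53 and 0.55 on the log2 scale in LIFR KO clones 1, 2 and 3. Axin2 differed by -0.23, -0.0056 and -0.68. The rest of the 10 lay on both sides of 0 over the 3 clones. Tcf7 differed by 0.30, -0.0064 and 0.23, Wnt4 by -0.11, -0.077 and 0.996, and Wnt9a by -0.40, -0.18 and 1.30. Rnf43 differed by 0.12, 0.20 and -0.34, Lgr5 by 0.27, 0.18 and -3.22, and Lgr6 by -0.27, 0.19 and -0.31. Fzd2 differed by 0.059, -0.24 and -0.39, and Wnt7a by -0.94, -2.01 and 0.44. The count of lower means was not repeated with the GC correction, and a lower mean in all 10 holds only without it. The 3 Wnt genes at least 2-fold lower in shPCBP1 than in NMuMG (Lgr4, Lrp5 and Tcf7l2) had lower means in FAM3C KO, against 46.7% of 688 genes, and in LIFR KO, against 64.4%. The comparisons share the shPCBP1 lines.

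Other genes of the pathway were counted over the same 4 lists. In FAM3C KO none of the tested genes of these lists passed. In LIFR KO, of 32 genes for secretion, the destruction complex and Dishevelled, Tnks2, a tankyrase that destabilizes Axin, was higher (log2 fold change 0.72 ± 0.17 (SE), adjusted p = 0.0496 from limma) and Csnk1e, a kinase of the pathway, was lower (log2 fold change -0.71 ± 0.13 (SE), adjusted p = 0.0372 from limma). Of 13 beta-catenin target genes 3 were lower, among them Ephb3 (log2 fold change -1.79 ± 0.31 (SE), adjusted p = 0.0323 from limma). Of 5 other secreted or membrane regulators Apcdd1, a membrane inhibitor of Wnt, and Tpbg were lower, and of 15 genes of planar cell polarity Celsr1 was. These shares are to be read against the 6.47% of all genes called. Between FAM3C KO and LIFR KO, of the 32 genes 4 were at higher values in FAM3C KO and 1 at lower. The 4 were Dvl1, a Dishevelled protein (log2 fold change 1.15 ± 0.24 (SE), adjusted p = 0.0387 from limma), Csnk1e (log2 fold change 0.84 ± 0.14 (SE), adjusted p = 0.0323 from limma), Cxxc5 (log2 fold change 0.67 ± 0.14 (SE), adjusted p = 0.0387 from limma) and Tle2, a co-repressor of TCF factors (log2 fold change 1.18 ± 0.26 (SE), adjusted p = 0.0411 from limma). Of the 5 regulators Apcdd1 (log2 fold change 0.83 ± 0.24 (SE), adjusted p = 0.0676 from limma) and Tpbg (log2 fold change 0.49 ± 0.14 (SE), adjusted p = 0.0654 from limma) were higher, of the 15 genes of planar cell polarity Celsr1 (log2 fold change 1.17 ± 0.21 (SE), adjusted p = 0.0354 from limma) was, and of the 13 target genes Vegfa, a growth factor for blood vessels (log2 fold change 1.07 ± 0.18 (SE), adjusted p = 0.0314 from limma), was. Of all genes 8.28% were called in this comparison, 82.5% of them higher in FAM3C KO, against 58.3% with quantile normalization and 54.7% with the GC correction. The calls of these lists are given without the GC correction. With it, 0.357% of all genes were called in LIFR KO against shPCBP1 and 0.595% between the 2 knockouts.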

How the data were processed

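RNA was measured in NMuMG-derived lines by RNA-Seq of rRNA-depleted, directional libraries with paired-end reads. According to the methods and the submitters' notes, the authors aligned trimmed reads to GRCm38 (mm10) with Bowtie2 in Partek Flow and quantified genes, and they deposited normalized CPM for each sample. The table of the second dataset also holds the authors' group means and their ratio (fold change), which were not used. In the second dataset 0.0001 CPM stands in place of 0, and in the first the lowest value of a library is 1 step, so that 0 and 1 read cannot be told apart there. Of values below 40 reads, a share of 0.852 to 0.916 per library were whole multiples of the library's smallest step within 0.02 reads, too few for a count test.

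Values were analysed as log2(CPM + 0.1), which understates changes of low genes, keeping genes whose mean reached 0.5 CPM, with limma 3.58.1 (trend) in R 4.3.3 and Benjamini-Hochberg adjustment over all genes tested; calls needed an adjusted p under 0.07, the cutoff of the study. One fit held the 3 groups of the first dataset, without the double KO, and another the second dataset, since the tables were normalized separately. Permutation tests used scipy 1.17.1 in Python 3.11.15. Coordinates, exon lengths and GC content are from GENCODE M21 (GRCm38): gene starts matched it for 14295 of 14795 genes in the second dataset and 302 of 13870 in the first. Promoters are from RefSeq.

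The genes, pathway lists and alternatives were chosen with earlier results of these data known. Values of every sample are given for genes that reach a mean of 1 CPM in a group or pass the threshold, with counts and ranges for the rest; fold changes of the first dataset are given for genes with an unadjusted p under 0.05. The fold of 2, the subtraction of the lowest value and the CTTTG core were added after seeing the data. Clone numbers shared across groups are labels only. Alternatives were median-ratio and quantile rescaling, a pseudocount of 1 CPM, other filters, an adjusted p under 0.05, each pair of groups fitted alone, a block for the replicate number, a GC correction (loess, span 0.3) with and without the block, the lowest value subtracted, leaving out each sample, and leaving out LIFR KO clones 2 and 3. Read floors and intervals cover counting error only.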

Additional observations from a re-analysis of the deposited data

Results flagged for a closer look

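Chance alone sets 1 sample apart in about 1 in 20 groups if values are normally distributed, which was not tested here. Of the 32 Wnt genes, 4 had a shPCBP1 line far from the other 3. The share among all listed genes was not counted, so the 4 cannot be read as an excess in the Wnt genes. The measure was a ratio, the gap to the nearest line divided by the range of the 4 lines. The ratio was 0.981 for Axin1 and 0.988 for Wnt5a, both with CT clone 3 high. It was 0.924 for Lrp6, with CT clone 2 low, and 0.833 for Lrp5, with CT clone 1 low.

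The double KO, a single library in no comparison, lay above all 4 shPCBP1 lines in 6 of 32 Wnt genes and below all 4 in 19. Over all listed genes it lay above in 25.4% and below in 51.8%. In this library the GC content of a gene and its difference from the shPCBP1 lines were correlated at a Spearman rho of -0.70 over 12603 genes, and mitochondrial genes took 8.58% of CPM. The median log2 difference of the 29 Wnt genes past the filter was -0.57, and -0.037 after the GC correction; the part of these in the 6 and the 19 genes was not tested. The 6 were Dkk3 at 0.749 CPM (highest shPCBP1 line 0.647), Fzd4 at 14.4 CPM (12.9), Fzd6 at 45.6 CPM (42.7), Lrp6 at 130 CPM (119.8), Wnt16 at 1.41 CPM (0.936) and Wnt9a at 1.83 CPM (1.72).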

How the results depend on the processing

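For shPCBP1 against NMuMG, 279 of 280 recomputed values for 24 Wnt genes kept their direction and side of the threshold. Over the alternatives that kept every sample, 20 to 31 Wnt genes passed, and 8743 to 10167 of all genes. The 31 came without the filter, where all 40 listed Wnt genes were tested. In the main fit 80.1% of all genes passed, so these counts are not a result about the Wnt genes. For FAM3C KO against shPCBP1 the count of 0 became 5 with the 2 groups fitted alone and 2 with the GC correction, and it was 0 leaving out any 1 sample. For LIFR KO against shPCBP1 the count of 2 became 1 at an adjusted p under 0.05, 1 with median-ratio rescaling, 1 without LIFR KO clones 2 and 3 (a single LIFR KO library, assumed to vary like the other groups), and 0 with the 2 groups fitted alone or the GC correction, and it was 0 to 9 leaving out 1 sample. For FAM3C KO against LIFR KO the count of 0 became 1 with median-ratio rescaling, 1 with the GC correction and 4 with that single LIFR KO library, and it was 0 to 6 leaving out 1 sample. Axin1 in LIFR KO against shPCBP1 changed sign: 0.087 with the GC correction, 0.044 with the GC correction and the replicate block, and 0.0076 without LIFR KO clones 2 and 3. The causes were not tested.

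Samples with the same number did not deviate together (correlations of -0.18 to 0.15), so the numbers do not pair them. With the replicate block the count was 0 for LIFR KO against shPCBP1, with and without the GC correction, and 0 for both other comparisons of the first dataset, and it was 24 for shPCBP1 against NMuMG.

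Counts over all genes moved more. For FAM3C KO against shPCBP1 39 genes passed, 3 to 27 leaving out 1 sample and 8 to 1048 over the other alternatives. For LIFR KO against shPCBP1 there were 816, then 5 to 7234 and 3 to 848. For FAM3C KO against LIFR KO there were 1045, then 1 to 6673 and 0 to 1195. The share of these calls that were higher was, in turn for these 3 comparisons, 28.2%, 14.1% and 82.5%, then 35.9%, 39.7% and 60.3% with median-ratio rescaling, 40.6%, 40.3% and 58.3% with quantile normalization, and 55.2%, 51.1% and 54.7% with the GC correction. With 4 lines against 3 clones an exact test cannot go below p = 0.0571, and levels under 3 reads in the second dataset cannot be told from 0.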
